A study of Homo sapiens with 24 samples.

Results

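The mitochondrial genome encodes 13 mRNAs, 22 tRNAs and 2 rRNAs, and these 37 genes were chosen by their symbol, which starts with MT-, among the 61853 gene rows of the study. The cells were 293T, a human embryonic kidney line, with DIS3 lowered by the hairpin DIS3-sh2 and resupplied either in wild-type form (WT) or carrying D146N, so that both arms carried knockdown and rescue. DIS3 is a nuclease of the RNA exosome in the nucleus and cytoplasm. Cytoplasmic RNA was taken from fractions 3, 4, 7 and 8 of a sucrose gradient, which parts complexes by size and density, and was depleted of ribosomal RNA before sequencing. The 8 groups (WT and D146N, 4 fractions each) held 3 libraries each. Neither the numbering direction of the gradients nor whether the lines were clones is stated. The design text calls the replicates biological without saying whether they were separate cultures, so a p-value measures the spread between these libraries, which may be technical, and a difference between rescues within a fraction label cannot be told apart from a difference in how the gradients were numbered or collected.

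Mitochondrial DNA is transcribed from both strands as long precursors, most mRNAs and both rRNAs from one and MT-ND6 with several tRNAs from the other. The tRNAs lie between many of the mRNAs, and cutting them out by RNase P and ELAC2 releases the mRNAs, which then receive poly(A) tails from MTPAP and are bound by LRPPRC. MT-ATP8 with MT-ATP6, and MT-ND4L with MT-ND4, each share 1 mRNA. The mRNAs encode core subunits of the respiratory chain: the MT-ND genes of complex I, MT-CYB of complex III, MT-CO1, MT-CO2 and MT-CO3 of complex IV, and MT-ATP6 and MT-ATP8 of ATP synthase. The rRNAs MT-RNR1 (small subunit) and MT-RNR2 (large subunit) form the mitochondrial ribosome with imported proteins. RNA inside mitochondria is normally degraded there by SUPV3L1 and PNPT1.

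Library totals ran from 21150568 to 32988927 counts. Levels are given as CPM, counts per 1000000 of the library total. DIS3 itself was at 91.4 to 112 CPM in WT fraction 3, against 4.54 to 5.23 in its fraction 7. With D146N it was at 7.79 to 9.63 in fraction 3 and 86.7 to 115 in fraction 7, so its fraction pattern was opposite in the 2 rescues. These counts cannot tell rescue from remaining endogenous transcripts. Of 7 marker genes of this line none was at 0 in all libraries. Of these 3 had a median of at least 1 CPM, VIM (110 CPM), KRT8 (17.6 CPM) and KRT18 (12.2 CPM). NEFM, NEFL, PAX2 and LHX1 had medians of 0.576, 0.212, 0.239 and 0.0546 CPM, and LHX1 was at 0 in 9 libraries. The leukocyte gene PTPRC was at 0 in 23 of 24 libraries. Of the 7 markers of other cells 2 had a median of at least 1 CPM, ALB (71.2 CPM) among them, and their sum was 125 to 137 CPM in WT fractions 3 and 4, 7.18 to 27.6 in WT fractions 7 and 8, 5.33 to 7.09 in D146N fractions 3 and 4 and 134 to 155 in D146N fractions 7 and 8. The sum of the line's own markers moved alike, at 265 to 291 CPM in WT fractions 3 and 4 and 20.9 to 28.7 in WT fractions 7 and 8, and the part of other cells in the results was not tested. The nuclear RNAs MALAT1 and NEAT1 summed to 2418 to 2619 CPM in WT fractions 3 and 4 against 90.0 to 121 in WT fractions 7 and 8; the part of nuclear RNA in the results was not tested. One library, WT fraction 8 replicate 3, stood apart from its group and is described first.

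WT fraction 8 replicate 3 differed from replicates 1 and 2 in kind as well as in amount. Its ratio to their mean in CPM was 1279 for MT-RNR1, 249 for MT-RNR2, 8.69 for MT-ATP8, 4.86 for MT-ND1, 3.26 for MT-ATP6, 2.74 for MT-CO2, 1.56 for MT-CO1 and 1.27 for MT-ND3. All 13 mRNAs were above 1 (median 2.26), where the median of 13245 genes with at least 10 counts was 1.28 and the central 90% lay between 0.756 and 3.06. The tRNA genes MT-TT, MT-TS1, MT-TP, MT-TS2 and MT-TW had ratios from 0.868 to 1.01, and MT-TK 3.43. For MT-CO2 (4564 CPM), MT-CO3 (6223 CPM) and MT-RNR1 (278 CPM) this library was above all 23 others, the next highest being at 3767, 5096 and 180 CPM. Within the mRNA pool it had less MT-CO1 (17.9% against 25.8% and 26.3%) and more MT-ND1 (6.62% against 2.97% and 3.19%) than the other 2, and much the same MT-CO3 (33.6% against 34.0% and 33.8%).

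**Figure D1:**
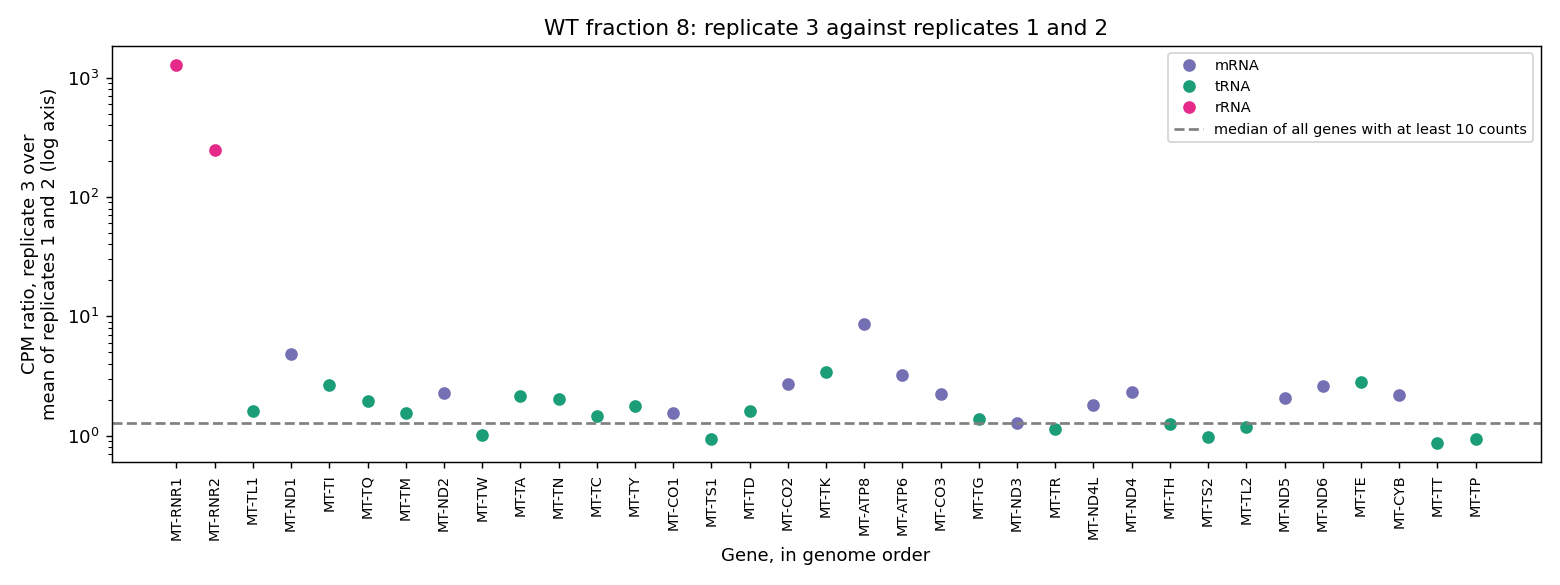
Ratio of WT fraction 8 replicate 3 to the mean of replicates 1 and 2 in CPM (log axis) for 35 mitochondrial genes in genome order, with the median of all genes (1.28) as a dashed line. MT-RNR1 (1279) and MT-RNR2 (249) lie far above the rest, and all 13 mRNAs lie above 1.

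The mRNAs made up almost all mitochondrial counts. Their share of the library was 3.33, 3.32 and 3.47% in the 3 WT fraction 3 libraries and 3.43, 3.45 and 3.48% in WT fraction 4. It was 0.719, 0.753 and 0.789% in WT fraction 7. In WT fraction 8 it was 0.823, 0.815 and 1.85%, and the value of replicate 3 lay more than 1 percentage point above the other 2. The D146N libraries showed the opposite order. They held 1.09, 1.09 and 1.12% in fraction 3 and 1.12, 1.04 and 1.11% in fraction 4. They held 3.82, 3.72 and 3.83% in fraction 7 and 3.76, 3.62 and 3.64% in fraction 8. The 2 rescues therefore did not overlap in any fraction, WT being higher in fractions 3 and 4 and D146N in fractions 7 and 8. Most genes did the same: of 18907 genes 89%, 87.9%, 89.4% and 86% did not overlap in CPM in fractions 3, 4, 7 and 8. The median log2 change of all genes with library totals was -2.85, -2.85, 3.08 and 2.78. The mean log2 ratio of the mRNA share, D146N over WT, was smaller in size, at -1.62, -1.67, 2.33 and 1.77. Each ratio had p = 0.10 by an exact two-sided permutation test, the smallest value that 3 libraries against 3 allow (adjusted p = 0.12 over 12 tests). Against a total that left out the 37 genes and the abundant small RNAs, the ratios had the same signs and were smaller, at -0.54, -0.56, 1.39 and 0.94, each again with p = 0.10 by that exact permutation test. In bulk RNA, fewer cells with a transcript and less of it per cell cannot be told apart, and a share also moves with all other RNAs in the library.

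The tRNA genes followed the mRNAs in part, and the rRNAs were variable. The 22 tRNA genes summed to 0.00738 ± 0.000335% of counts (SD, n = 3) in WT fraction 3 and 0.00490 ± 0.000265% in WT fraction 7. They summed to 0.00256 ± 0.000133% in D146N fraction 3 and 0.00697 ± 0.000329% in D146N fraction 7. The D146N over WT log2 ratios of the tRNA share, -1.53, -1.41, 0.51 and 0.23 in fractions 3, 4, 7 and 8, were smaller in fractions 7 and 8 than those of the mRNAs, and the last had p = 0.20 by the exact permutation test (adjusted p = 0.218). The groups overlapped there through replicate 3 of WT fraction 8 alone: the WT libraries held 0.00569, 0.00543 and 0.00690% and the D146N libraries 0.00737, 0.00669 and 0.00699%. Without that library the ratio was 0.33 (p = 0.10 by the exact permutation test). Against the smaller total, the tRNA ratios in fractions 7 and 8 were -0.43 and -0.60, the opposite sign. The rRNA share was 0.0229 ± 0.00604% in WT fraction 3 and 7.08e-05 ± 1.22e-05% in D146N fraction 3 (SD, n = 3). The mean log2 ratio of the rRNA share, D146N over WT, was -8.32, -4.41 and 4.34 in fractions 3, 4 and 7. These had the signs of the mRNA ratios, each with p = 0.10 by the exact permutation test (adjusted p = 0.12). In fraction 8 the rRNA share was 2.23e-05, 4.56e-05 and 0.0309% in the WT libraries and 0.0151, 0.0182 and 0.0121% in the D146N libraries, a mean log2 ratio of 5.56 (p = 0.40 by the exact permutation test, adjusted p = 0.40). The overlap again came from replicate 3 of WT fraction 8, without which the ratio was 8.87 (p = 0.10 by the exact permutation test, the smallest that 2 against 3 allow).

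**Figure D2:**
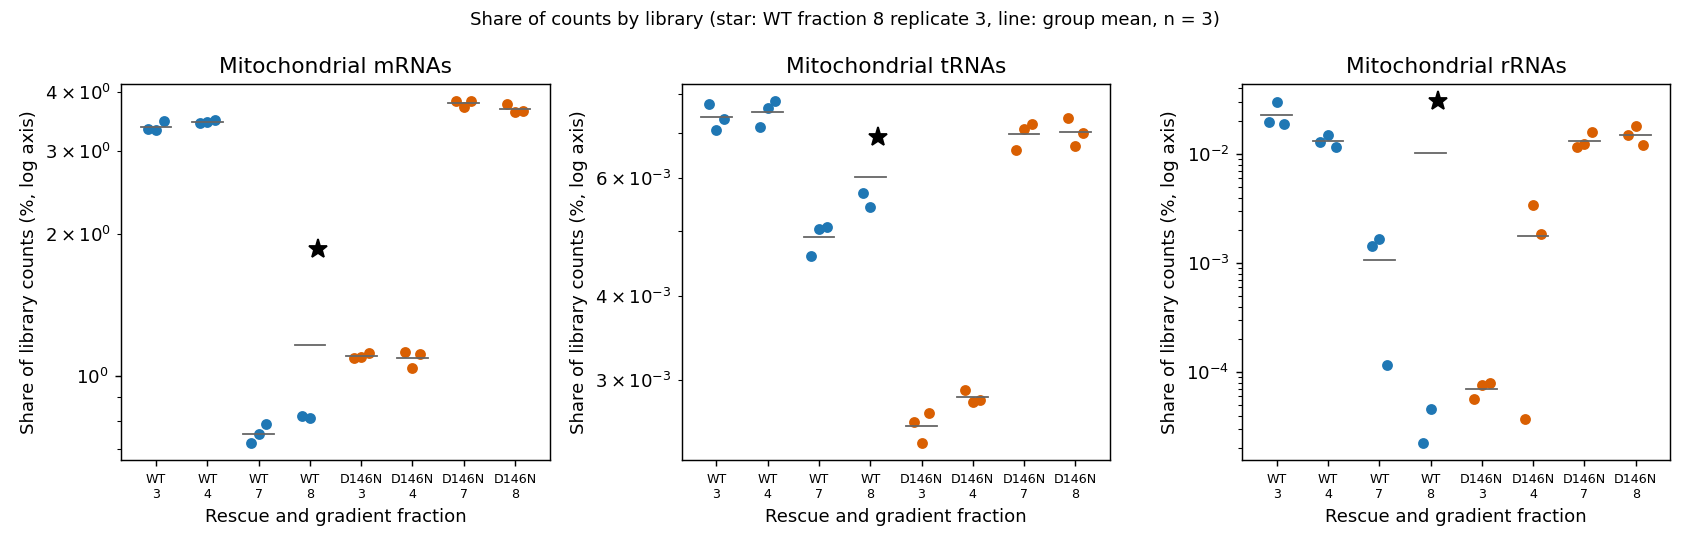
Share of library counts (%, log axis) held by the 13 mRNAs, 22 tRNAs and 2 rRNAs in each of the 24 libraries, by rescue and fraction. Points are libraries, lines are means of 3, and the star is WT fraction 8 replicate 3, which holds 1.85% mRNA counts against 0.823% and 0.815% in the other 2 libraries of its group.

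The make-up of the mRNA pool differed between the groups, and this comparison does not depend on how libraries are scaled. MT-CO1, the catalytic subunit of complex IV (chromosome MT, 5904 to 7445 in GRCh38.p14), took 33.3% and 33.1% of the counts of the 13 mRNAs in WT fractions 3 and 4 and 26.8% in WT fraction 7. It took 18.2% in both D146N fractions 3 and 4 and 31.3% and 31.6% in D146N fractions 7 and 8. MT-CO3, another complex IV subunit (9207 to 9990), moved the other way. It took 11.9% in both WT fractions 3 and 4, 33.9% in WT fraction 7, 25.7% and 25.5% in D146N fractions 3 and 4, and 13.2% and 12.7% in D146N fractions 7 and 8. MT-CO2, which carries the copper site that accepts electrons from cytochrome c, took 9.03%, 8.83%, 20.2% and 21.8% in WT fractions 3, 4, 7 and 8. The D146N shares were 22.8%, 22.9%, 9.66% and 9.50% in the same order.

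The ratio of MT-CO3 to MT-CO1 counts summarises this. It was 0.356 ± 0.00126 (SD, n = 3) in WT fraction 3, against 1.27 ± 0.0169 in its fraction 7. In D146N it was 1.41 ± 0.0274 in fraction 3 and 0.422 ± 0.00605 in fraction 7. In WT fraction 8 it ranged from 1.28 to 1.87, the highest being replicate 3. Libraries of WT fractions 3 and 4 and of D146N fractions 7 and 8 thus had more MT-CO1 than MT-CO3, and the other 12 libraries had more MT-CO3 than MT-CO1.

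MT-CYB, the cytochrome b of complex III, and MT-ND5, a proton-pumping subunit of complex I, formed the opposite pair. MT-CYB took 8.18% and 8.35% of the pool in WT fractions 3 and 4 against 2.83% and 2.80% in fractions 7 and 8. The D146N shares were 3.89%, 3.92%, 10.8% and 10.9%. MT-ND5 took 5.31%, 5.37%, 1.62% and 1.64% in WT and 2.64%, 2.61%, 7.29% and 7.37% in D146N. The ratio of MT-CYB to MT-ND5 stayed between 1.44 and 1.80 in all 24 libraries. MT-ND4 behaved differently from its neighbour MT-ND5. The ratio of MT-ND4 to MT-ND5 was 2.19 in both WT fractions 3 and 4, and 3.13 and 3.20 in WT fractions 7 and 8. It was 2.62 and 2.69 in D146N fractions 3 and 4, and 1.10 and 1.07 in D146N fractions 7 and 8.

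**Figure D3:**
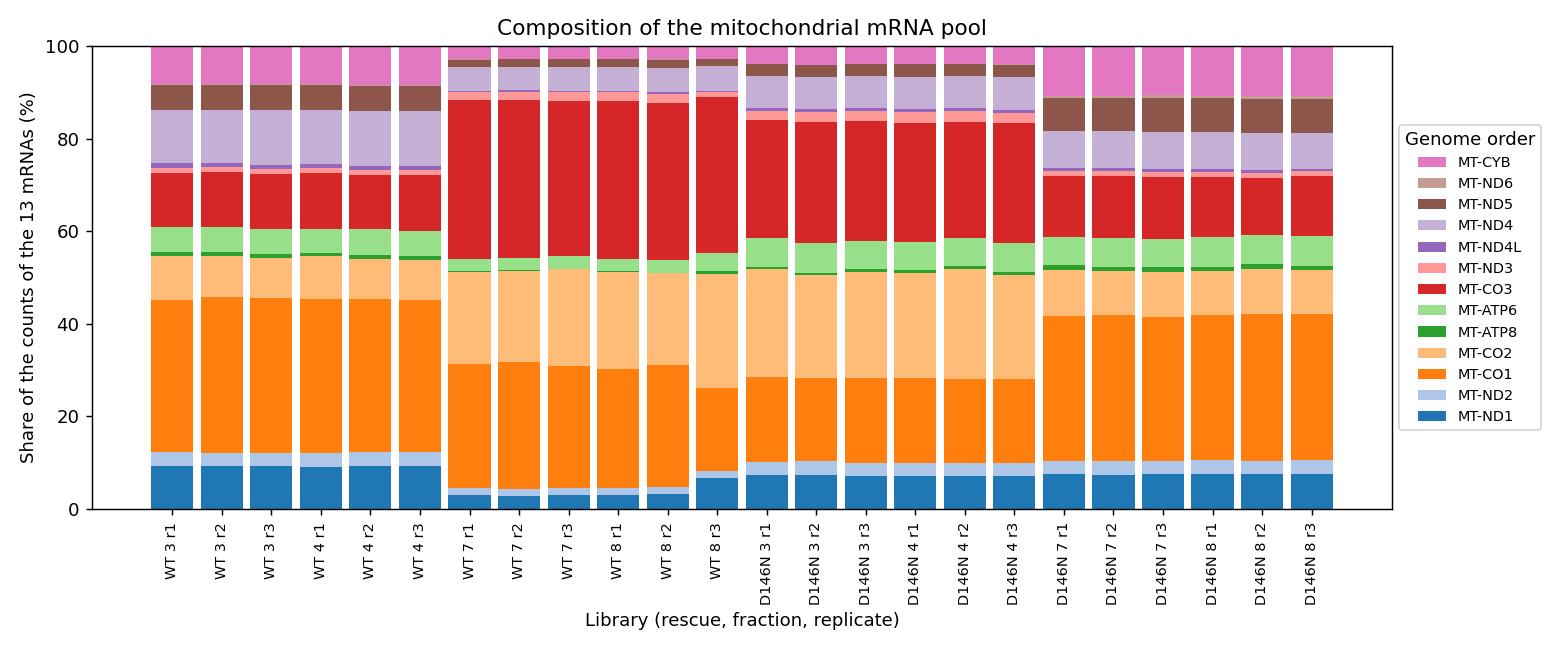
Composition of the counts of the 13 mitochondrial mRNAs (%) in each library, stacked in genome order. MT-CO2 and MT-CO3 are widest in WT fractions 7 and 8 and D146N fractions 3 and 4, and MT-CYB and MT-ND5 are widest in the other 12 libraries.

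CPM values show the same genes on the scale of the library. MT-CO1 was at 10975, 11185 and 11554 CPM in WT fraction 3, against 1926, 2057 and 2076 in its fraction 7. D146N libraries held 1986, 1967 and 2056 CPM in fraction 3 and 11968, 11711 and 11918 in fraction 7. High and low groups did not overlap. Of 18907 genes, 78.7% in WT and 83.9% in D146N did not overlap in CPM between fractions 7 and 8 and fractions 3 and 4. MT-CO3 was at 3919, 3967 and 4118 CPM in WT fraction 3, against 2465, 2567 and 2644 in its fraction 7. Under D146N the values were 2768, 2841 and 2879.8 in fraction 3, against 4975, 4956 and 5096 in fraction 7. Its groups lay closer together and did not overlap between WT fraction 3 and WT fraction 7. MT-CO2 was at 3164, 2913 and 3056 CPM in WT fraction 3, against 1430.0, 1489 and 1649 in its fraction 7. The mutant rescue gave 2544, 2430.3 and 2551 in fraction 3 and 3767, 3533 and 3679 in fraction 7. D146N fraction 3 was thus below WT fraction 3 for this gene too, by less than for MT-CO1.

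MT-CYB was at 2718, 2713 and 2848 CPM in WT fraction 3, against 206, 213 and 220.5 in its fraction 7. D146N libraries held 419, 439 and 427 CPM in fraction 3 and 4147, 3985 and 4093 in fraction 7. D146N fraction 7 was above every WT library. MT-ND5 was at 1764, 1747 and 1863 CPM in WT fraction 3, against 116, 119 and 132 in its fraction 7. Under D146N the values were 289, 287 and 297 in fraction 3, against 2768, 2680.4 and 2834 in fraction 7. Here too D146N fraction 7 exceeded every WT library. MT-ND6, the only mRNA read from the other strand, was the least abundant. It was at 97.4, 95.9 and 94.9 CPM in WT fraction 3, against 8.94, 7.21 and 8.46 in its fraction 7. In D146N it was at 10.7, 12.3 and 10.5 in fraction 3 and 138, 164 and 172 in fraction 7, again above every WT library.

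In the remaining complex I mRNAs and the ATP synthase mRNAs, WT fractions 3 and 4 and D146N fractions 7 and 8 were above D146N fractions 3 and 4, and these were above WT fractions 7 and 8 without replicate 3 of fraction 8. MT-ND1 ranged over 3050.3 to 3265 CPM in WT fractions 3 and 4, 220.1 to 259.8 in WT fractions 7 and 8 without replicate 3 of fraction 8, 744 to 809 in D146N fractions 3 and 4 and 2726 to 2880.3 in D146N fractions 7 and 8. MT-ND2 ranged over 978 to 1063, 107 to 129, 289.9 to 323 and 1063 to 1120.4 CPM in the same 4 sets of libraries. MT-ND4 ranged over 3815 to 4137, 364 to 427, 725 to 784 and 2814 to 3055 CPM. For MT-ND4, unlike MT-ND2, every D146N library was below every library of WT fractions 3 and 4. MT-ND4L ranged over 289 to 319, 17.0 to 27.9, 57.0 to 68.2 and 198 to 249 CPM. MT-ND3 ranged over 346 to 373, 134 to 169, 228 to 266 and 381 to 418 CPM, the narrowest spread among the complex I mRNAs. MT-ATP6 ranged over 1760.2 to 1905, 188 to 229.8, 639.8 to 709 and 2317 to 2384 CPM. MT-ATP8 ranged over 265 to 292, 11.4 to 13.6, 59.7 to 68.3 and 372 to 397 CPM, so its low level in WT fraction 7 was lower, relative to WT fraction 3, than that of MT-ATP6. The genes of these pairs overlap on chromosome MT (MT-ATP8 8366 to 8572 with MT-ATP6 8527 to 9207, MT-ND4L 10470 to 10766 with MT-ND4 10760 to 12137), and how reads in the overlap were assigned is not given in the sources used here.

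Per kilobase of gene, the order of the mRNAs also changed. In WT fractions 3 and 4 MT-CO1 led (7288 and 7408 CPM per kb), followed by MT-CO3 (5103 and 5260), MT-CO2 (4451 and 4459), MT-ND1, MT-ND4, MT-ATP6 and MT-CYB, and MT-ND6 was last (183 and 177). In fraction 3 MT-ND4L, MT-ND3, MT-ND5 and MT-ND2 followed each other at 1039 to 958 CPM per kb, with overlapping libraries between neighbours. In D146N fractions 7 and 8 the first 3 were the same, and MT-CYB (3571 and 3501) and MT-ATP6 (3463 and 3451), which overlapped, came before MT-ND1. In D146N fractions 3 and 4 MT-CO2 (3667 and 3648) and MT-CO3 (3609 and 3546) overlapped at the top, and MT-CO1 came next (1299 and 1284). In WT fraction 7 MT-CO3 led (3263), then MT-CO2 (2226), MT-CO1 (1310) and MT-ND3 (416). In WT fraction 8 most neighbours in the order overlapped, replicate 3 included.

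Fold changes were fitted with edgeR on TMM-scaled counts, that is, relative to the typical gene, and a gene was called at a Benjamini-Hochberg adjusted p under 0.05 over all 18907 genes tested. Errors of log2 changes are standard errors (SE). Of the 37 genes 36 passed the filter on low counts; MT-TF did not. The scale matters here. TMM factors ran from 2.47 to 2.55 in WT fraction 3 and from 0.349 to 0.373 in WT fraction 7, and the median log2 change of all genes between fractions 7 and 8 and fractions 3 and 4 in WT was -0.18 with TMM but -2.83 with library totals. In D146N it was 0.10 with TMM and 3.00 with library totals. A gene that fell less than most genes on the library scale could therefore rise on the TMM scale.

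In WT, fractions 7 and 8 were compared with fractions 3 and 4. On the TMM scale 4 of 13 mRNAs were higher and 8 lower, with a median log2 change of -0.40, where 73.9% of all genes tested were called in either direction (34.6% higher, 39.3% lower). With library totals 13 of 13 were lower, with a median of -3.05, where 91.3% of all genes were called (7.66% higher, 83.6% lower). The 4 higher ones were MT-CO3 (2.29 ± 0.09, edgeR adjusted p = 1.35e-22), MT-CO2 (2.03 ± 0.11), MT-ND3 (1.52 ± 0.06) and MT-CO1 (0.34 ± 0.07), and all 4 had the opposite sign with library totals (-0.36, -0.61, -1.16 and -2.33). The lower ones on both scales were led by MT-ATP8 (-0.95 ± 0.32), MT-ND5 (-0.94 ± 0.08), MT-ND4L (-0.92 ± 0.07) and MT-CYB (-0.78 ± 0.08). MT-ND1 (-0.52), MT-ND6 (-0.46), MT-ND4 (-0.40) and MT-ND2 (-0.21) were lower by less, and MT-ATP6 did not pass (-0.12 ± 0.13, edgeR adjusted p = 0.448). Without WT fraction 8 replicate 3, MT-ATP6 was at -0.39 and passed, and the changes of MT-ND1, MT-ND2 and MT-ATP8 were -0.97, -0.36 and -1.70. MT-ND1 no longer passed without WT fraction 7 replicate 1 (-0.55) or 2 (-0.52) or WT fraction 8 replicate 1 (-0.39) or 2 (-0.40), and MT-ND2 no longer passed without WT fraction 8 replicate 1 (-0.16). Neither passed in DESeq2 (MT-ND1 -0.44, adjusted p = 0.0886; MT-ND2 -0.12, adjusted p = 0.183), and MT-ND2 reached -0.33 without 1 library of WT fractions 3 and 4, where MT-CO1 was at 0.22 at its smallest.

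In D146N the same fractions were compared. On the TMM scale 3 of 13 mRNAs were higher and 9 lower (median -1.09), where 60.2% of all genes tested were called (29.9% higher, 30.3% lower). With library totals 13 of 13 were higher (median 1.83), where 92.9% of all genes were called (88.9% higher, 4.08% lower). The largest decreases were those of MT-CO2 (-2.41 ± 0.11, edgeR adjusted p = 1.84e-20), MT-ND3 (-2.23 ± 0.06) and MT-CO3 (-2.14 ± 0.09), whose library total values were 0.51, 0.70 and 0.79. MT-ATP6 (-1.14), MT-ND2 (-1.12), MT-ND1 (-1.10), MT-ND4L (-1.09), MT-ND4 (-0.97) and MT-CO1 (-0.37) were also lower with TMM and higher with library totals. MT-ND6 (1.01 ± 0.12), MT-ND5 (0.32 ± 0.08) and MT-CYB (0.31 ± 0.08) were higher on both scales. MT-CO1 was at -0.21 at its smallest without 1 library of D146N fractions 7 and 8, and MT-ND5 and MT-CYB were at 0.49 and 0.47 without D146N fraction 7 replicate 2. MT-ATP8 did not pass with TMM (-0.38 ± 0.31, edgeR adjusted p = 0.313).

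With TMM, 11 of the 13 mRNAs were called in both rescues, 7 with opposite sign and 4 (MT-ND1, MT-ND2, MT-ND4L and MT-ND4) lower in both, whereas with library totals all 13 were lower in WT and higher in D146N. With TMM, of all 18907 genes tested 55.9% were called in both, 55.5% with opposite sign, 0.307% lower in both and 0.0635% higher in both. With library totals 86.9% of them were called in both with opposite sign. The difference of the 2 fraction contrasts, D146N minus WT, was tested directly, and 3 mRNAs were higher and 7 lower with TMM. Of all genes tested 77.1% were called (41.7% higher, 35.4% lower), and 94.5% with library totals (88.1% higher, 6.41% lower). The difference was largest for MT-CO2 (-4.44 ± 0.15), MT-CO3 (-4.43 ± 0.13) and MT-ND3 (-3.75 ± 0.09), negative with TMM and positive with library totals (1.12, 1.14 and 1.85). It was positive on both scales for MT-ND6 (1.48 ± 0.17), MT-ND5 (1.26 ± 0.11) and MT-CYB (1.09 ± 0.11). MT-ND1 (-0.58), MT-ATP8 (0.58) and MT-ND4L (-0.18) did not pass, although MT-ND4L did in DESeq2 (-0.26, adjusted p = 0.0149). Without WT fraction 8 replicate 3 the difference of MT-ATP8 was 1.33 and passed, and that of MT-ND1 was -0.12 and passed; MT-ND1 also passed without WT fraction 8 replicate 1 (-0.69) or 2 (-0.68). Small differences moved with the library left out: MT-CO1 (-0.71) and MT-ND4 (-0.57) were at -0.43 and -0.29 at their smallest, when 1 library of WT fractions 3 and 4 or D146N fractions 7 and 8 was left out.

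**Figure D4:**
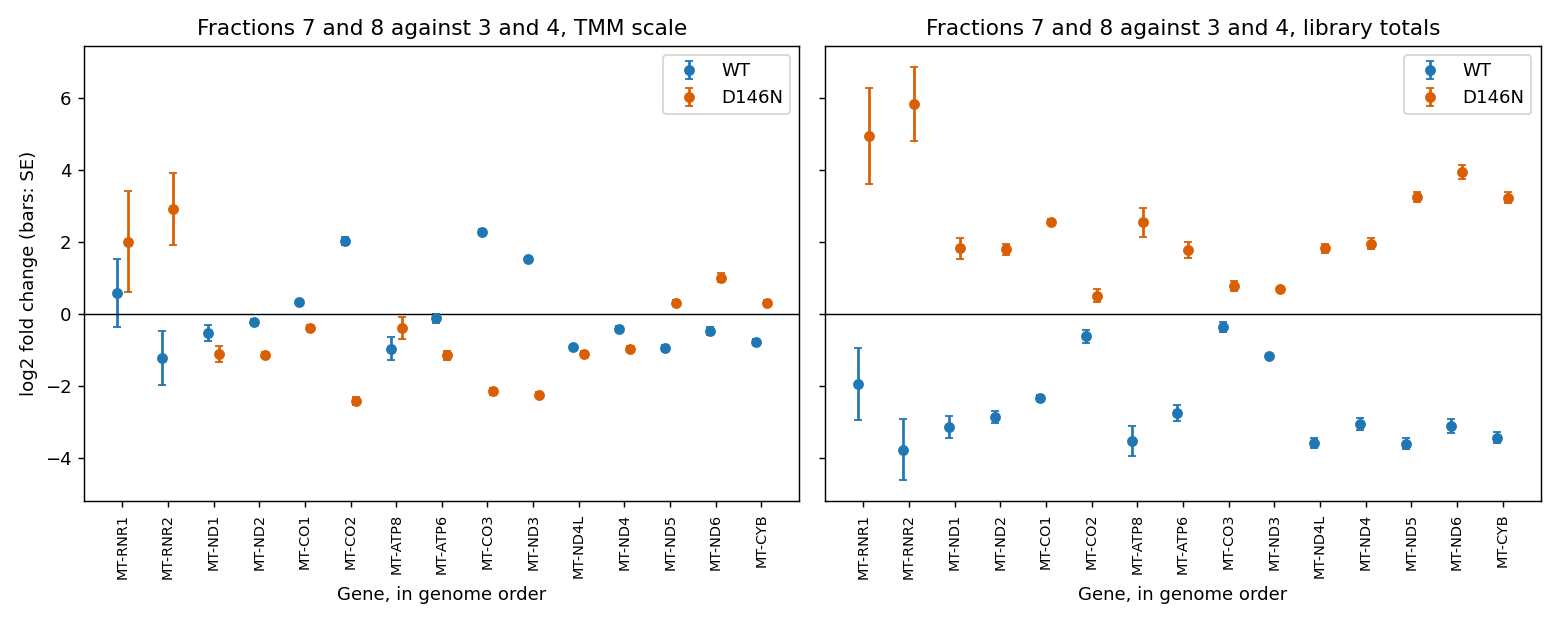
Log2 fold change of fractions 7 and 8 over fractions 3 and 4 (bars: SE) for the 2 rRNAs and 13 mRNAs in genome order, in WT and D146N, on the TMM scale (left) and with library totals (right). On the left MT-CO2, MT-CO3 and MT-ND3 are far above 0 in WT and far below in D146N, and on the right all 13 mRNAs are below 0 in WT and above 0 in D146N.

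The tRNA genes held far fewer counts than the mRNAs. Reads in a tRNA gene can come from the mature tRNA or from uncut precursors, and which of these they were was not tested. The 4 with the highest mean count were MT-TL1, MT-TK, MT-TR and MT-TS1, the tRNAs for leucine (UUR codons), lysine, arginine and serine (UCN codons). In WT, 15 of 21 tested tRNA genes were higher in fractions 7 and 8 and 4 lower with TMM (median 2.001), where 34.6% of all genes were higher and 39.3% lower. With library totals 6 were higher and 12 lower (median -0.62), where 7.66% of all genes were higher and 83.6% lower. In D146N 2 tRNA genes were higher and 12 lower with TMM (median -1.17), where 29.9% of all genes were higher and 30.3% lower. With library totals 15 were higher and 2 lower in D146N (median 1.72), where 88.9% of all genes were higher and 4.08% lower. With TMM 14 of the 21 were called in both rescues, 13 of them with opposite sign, and of all genes tested 55.9% were called in both and 55.5% were called with opposite sign.

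MT-TL1, between MT-RNR2 and MT-ND1, was at 20.4, 16.0 and 19.3 CPM in WT fraction 3, against 0.976, 0.793 and 0.895 in its fraction 7. The mutant rescue gave 1.82, 1.39 and 1.94 in fraction 3 and 18.1, 15.8 and 16.7 in fraction 7. These levels followed the mRNAs, and the log2 change was -1.42 ± 0.11 (SE) in WT and 0.26 ± 0.10 (SE) in D146N; the second was lost without D146N fraction 3 replicate 2 (0.22, edgeR adjusted p = 0.0918) and was at 0.44 without D146N fraction 7 replicate 2. MT-TE, the glutamate tRNA beside MT-CYB, was at 4.45, 5.17 and 4.76 CPM in WT fraction 3, 0.322, 0.233 and 0.231 in its fraction 7, 0.406, 0.292 and 0.404 in D146N fraction 3 and 8.36, 8.08 and 8.23 in D146N fraction 7. It followed the same order, with D146N fraction 7 above WT fraction 3. MT-TR, between MT-ND3 and MT-ND4L, had the reverse order. It was at 3.25, 3.39 and 2.82 CPM in WT fraction 3, against 6.10, 6.38 and 7.64 in its fraction 7. D146N libraries held 4.35, 3.83 and 4.71 CPM in fraction 3 and 1.81, 2.54 and 2.51 in fraction 7. Its log2 change was 4.06 ± 0.11 (SE) in WT and -4.00 ± 0.12 (SE) in D146N, the same signs with library totals (1.38 and -1.08).

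MT-TK, between MT-CO2 and MT-ATP8, was lowest in WT fractions 7 and 8, at 1.37, 1.54 and 1.69 CPM in fraction 7 and 1.47, 2.21 and 6.33 in fraction 8, the last being replicate 3. It was at 10.9, 8.66 and 10.1 CPM in WT fraction 3, 7.17, 7.06 and 7.16 in D146N fraction 3 and 8.11, 7.67 and 9.44 in D146N fraction 7. Its log2 change in WT was 0.47 ± 0.16 (SE) with TMM, which did not pass without any 1 library of WT fractions 3 and 4 (0.32 to 0.40) or without WT fraction 8 replicate 3 (0.15), and was -2.17 with library totals. In D146N it was -2.69 ± 0.15 (SE) with TMM and 0.23 with library totals. MT-TS1 ranged over 4.07 to 5.93 CPM in WT fractions 3 and 4 and 4.31 to 5.50 in WT fractions 7 and 8, which overlapped, and over 2.05 to 2.81 and 4.92 to 7.26 in D146N. Its log2 change was 2.65 ± 0.12 (SE) in WT and -1.49 ± 0.13 (SE) in D146N with TMM, against -0.03 and 1.43 with library totals.

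MT-TW, MT-TA, MT-TT and MT-TP, named after their values were seen, each had the highest group mean CPM in WT fraction 7 or 8. For the first 3, every library of WT fractions 7 and 8 was above every other library. MT-TW, the tryptophan tRNA (5512 to 5579), was at 10.5, 11.89 and 10.03 CPM in WT fraction 7, with 14.8, 12.4 and 13.7 in fraction 8. Its neighbour MT-TA, the alanine tRNA (5587 to 5655), was at 1.95, 2.66 and 2.60 CPM in WT fraction 7, with 2.73, 3.07 and 6.24 in fraction 8, the last being replicate 3. For MT-TW every other library was below 1 CPM, the range being 0.213 to 0.987 in WT fractions 3 and 4, 0.0203 to 0.196 in D146N fractions 3 and 4 and 0.259 to 0.650 in D146N fractions 7 and 8. MT-TA ranged over 0.308 to 0.747, 0.0731 to 0.303 and 0.548 to 1.62 CPM in those sets. MT-TT, the threonine tRNA (15888 to 15953), was at 7.42, 8.12 and 7.47 CPM in WT fraction 7 and 0.487 to 0.741 in D146N fractions 3 and 4. MT-TP, the proline tRNA (15956 to 16023), was at 2.89, 3.11 and 3.81 CPM in WT fraction 7, 0.292 to 0.711 in D146N fractions 3 and 4 and 2.02 to 3.98 in D146N fractions 7 and 8, so that it overlapped between WT fractions 7 and 8 and D146N fractions 7 and 8. In WT the log2 changes of fractions 7 and 8 over 3 and 4 were 7.26 ± 0.18 (SE) for MT-TW, 5.33 ± 0.24 (SE) for MT-TA, 4.79 ± 0.16 (SE) for MT-TT and 3.63 ± 0.17 (SE) for MT-TP with TMM, and 4.59, 2.70, 2.103 and 0.95 with library totals. MT-TW and MT-TA, and likewise MT-TT and MT-TP, lie on opposite strands, and the strand setting of the counting is not given in the sources used here, so reads of a gene and of transcripts antisense to it cannot be told apart.

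**Figure D5:**
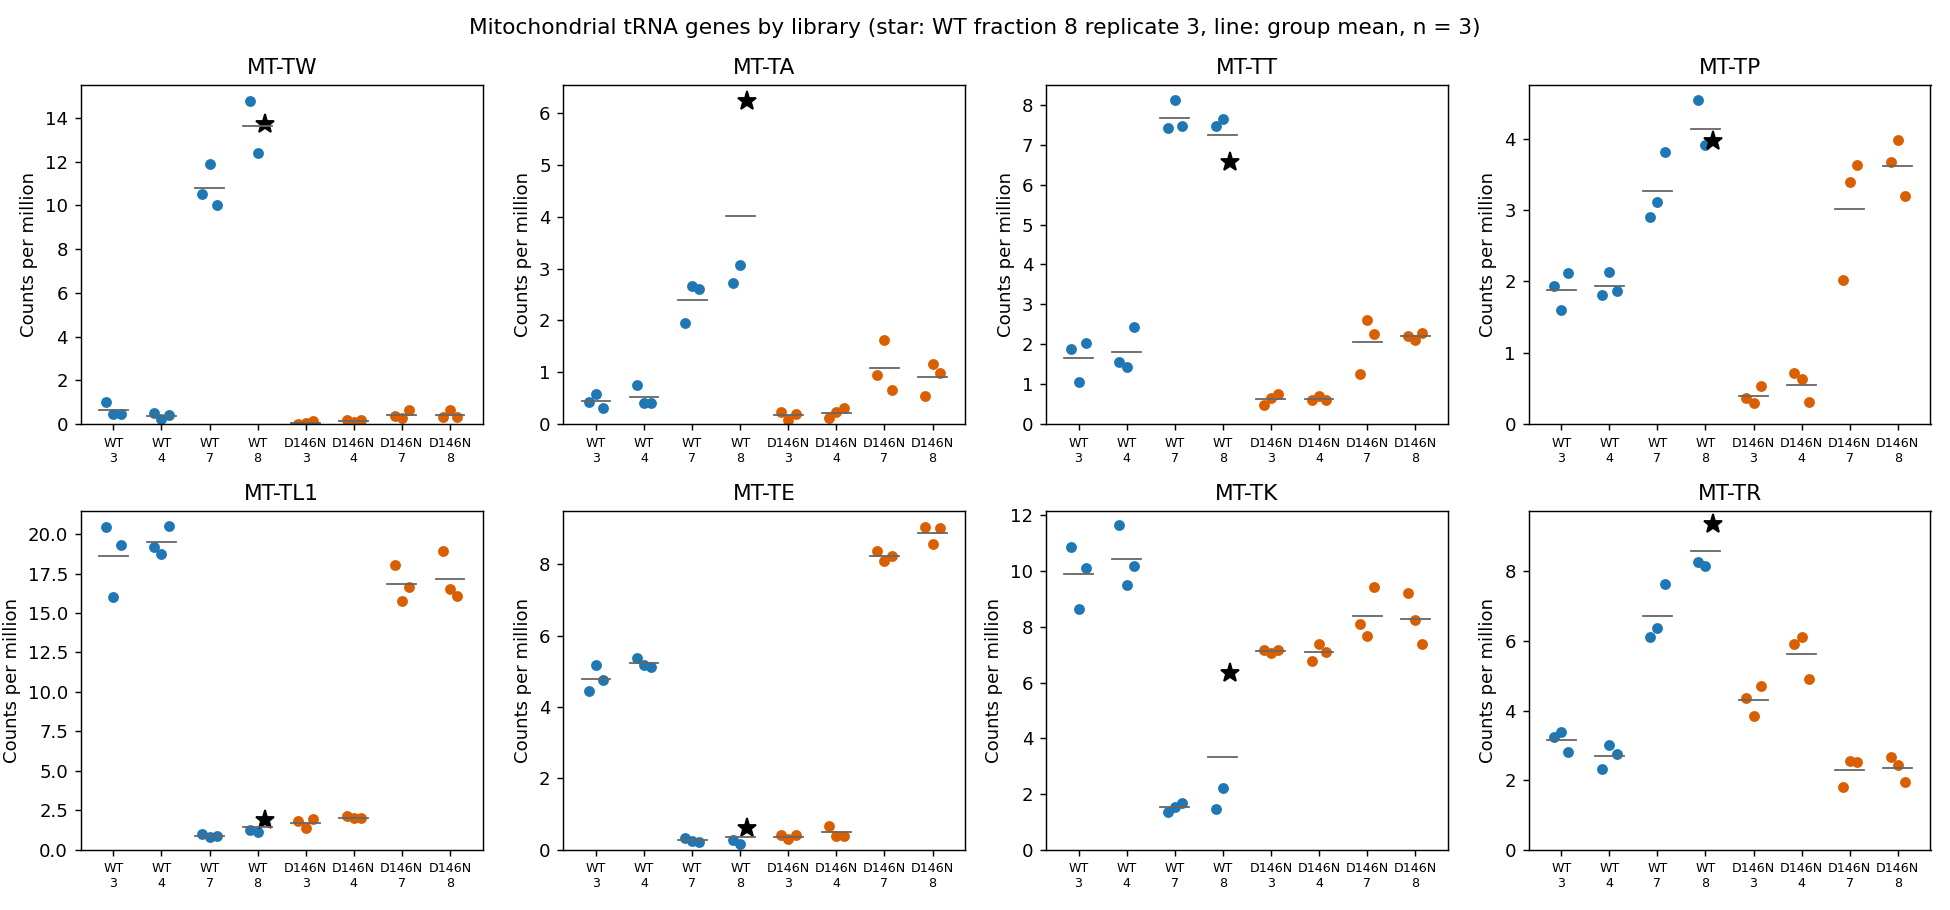
CPM of 8 mitochondrial tRNA genes in each library (points), with the group mean (line, n = 3) and WT fraction 8 replicate 3 as a star. MT-TW, MT-TA and MT-TT are high in WT fractions 7 and 8, MT-TL1 and MT-TE are high in WT fractions 3 and 4 and D146N fractions 7 and 8.

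MT-TL2, the leucine tRNA for CUN codons, was at 0.485 to 1.13 CPM in WT fractions 3 and 4, 2.32 to 3.01 in WT fractions 7 and 8, 1.22 to 2.17 in D146N fractions 3 and 4 and 0.444 to 0.896 in D146N fractions 7 and 8, the same order as MT-TR. MT-TH and MT-TS2, which lie between MT-ND4 and MT-TL2, had their highest levels in WT fractions 3 and 4. MT-TH was at 4.47 to 8.47 CPM there and at 1.23 to 2.90 in D146N fractions 7 and 8. MT-TS2 was at 2.63 to 3.28 and 0.476 to 1.61 CPM in the same sets. MT-TQ, the glutamine tRNA, was highest in D146N fractions 7 and 8, at 1.51 to 3.01 CPM against 0.545 to 1.09 in WT fractions 3 and 4. MT-TN, MT-TC and MT-TY, the tRNAs for asparagine, cysteine and tyrosine, sit side by side next to MT-TA, and ranged over 2.19 to 3.34, 1.74 to 3.33 and 2.77 to 4.65 CPM in WT fractions 3 and 4. In WT fractions 7 and 8 they ranged over 0.510 to 1.17, 0.417 to 0.778 and 0.290 to 0.606 CPM, unlike MT-TA. In WT fractions 3 and 4 MT-TM was at 3.48 to 4.54 CPM, MT-TD at 1.76 to 2.47, MT-TI at 0.302 to 0.743 and MT-TG at 0.598 to 1.07. The same genes were at 2.03 to 2.38, 0.646 to 0.921, 0.135 to 0.284 and 0.339 to 0.700 CPM in D146N fractions 3 and 4. In WT fractions 7 and 8 these 4 ranged over 1.24 to 2.40, 1.03 to 2.36, 0.247 to 0.715 and 0.354 to 0.919 CPM. In D146N fractions 7 and 8 the ranges were 2.20 to 2.74, 1.40 to 2.11, 0.597 to 1.12 and 0.445 to 1.09 CPM. Finally, 2 tRNA genes (MT-TF and MT-TV) had a mean under 10 counts a library.

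What remained of the rRNAs after depletion differed widely between libraries of 1 group. MT-RNR1 (648 to 1601) was at 122, 180.2 and 117 CPM in the WT libraries of fraction 3, 79.8, 90.3 and 70.7 in fraction 4, 10.6, 13.1 and 1.04 in fraction 7 and 0.191, 0.243 and 278 in fraction 8. With D146N it was at 0.324, 0.256 and 0.558 CPM in fraction 3, 0.320, 24.1 and 12.7 in fraction 4, 54.4, 53.7 and 75.0 in fraction 7 and 68.2, 87.2 and 59.8 in fraction 8. MT-RNR2 (1671 to 3229) was at 76.8, 118 and 71.9 CPM in the WT libraries of fraction 3, 3.67, 3.39 and 0.132 in fraction 7 and 0.0319, 0.213 and 30.5 in fraction 8. With D146N it was at 0.243, 0.511 and 0.231 CPM in fraction 3, 0.0533, 9.89 and 5.78 in fraction 4, 63.0, 69.0 and 84.4 in fraction 7 and 82.6, 94.4 and 60.9 in fraction 8. Both rRNAs were thus high in all libraries of WT fractions 3 and 4 and of D146N fractions 7 and 8, and in replicate 3 of WT fraction 8. The ratio of MT-RNR1 to MT-RNR2 was 1.58 ± 0.0559 (SD, n = 3) in WT fraction 3 and 0.844 ± 0.057 in D146N fraction 7. The log2 change of fractions 7 and 8 over 3 and 4 in WT was 0.59 ± 0.94 (SE) for MT-RNR1 and -1.20 ± 0.75 (SE) for MT-RNR2 with TMM, neither called, but without WT fraction 8 replicate 3 both fell, by 3.54 (edgeR adjusted p = 0.00115) and by 4.19 (edgeR adjusted p = 9.13e-05). In D146N the changes were 2.02 ± 1.39 (SE) and 2.92 ± 1.002 (SE), the second called. The difference between the rescues was 4.12 ± 1.26 (SE) for MT-RNR2, called, and 7.13 without that library, and for MT-RNR1 it was 1.43, not called, and 5.59, called, without it. How far the depletion reached in each library was not tested.

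D146N was also compared with WT within each fraction. In fraction 3, 20 of the 36 tested genes were higher in D146N and 4 lower with TMM. Of all genes tested 49.7% were called (25.8% higher, 23.9% lower). With library totals 1 of the 36 was higher and 31 lower, where 88.6% of all genes were called (3.91% higher, 84.7% lower). With TMM, leaving out any 1 library of fraction 3 gave fewer called members, 19 to 21. The mRNAs contributed 9 higher and none lower with TMM (median 0.66), and none higher and 12 lower with library totals. The largest called changes were those of MT-TL2 (3.37 ± 0.27) and MT-TR (3.22 ± 0.16) upward and MT-RNR1 (-5.77 ± 2.17) and MT-RNR2 (-5.28 ± 1.62) downward; MT-RNR1 did not pass without WT fraction 3 replicate 2 (-5.68) or without D146N fraction 3 replicate 1 (-5.72), 2 (-5.58) or 3 (-6.14), or without the filter (-5.89). In fraction 4, 21 of the 36 were higher and 2 lower with TMM, where 48.5% of all genes were called (25.7% higher, 22.8% lower). With library totals 2 were higher and 29 lower, where 88.1% of all genes were called (3.78% higher, 84.3% lower). With TMM, leaving out any 1 library of fraction 4 gave fewer called members, 18 to 22. MT-TL2 (3.93 ± 0.28) and MT-TR (3.84 ± 0.16) again led the increases; with library totals MT-TL2 was at 0.61 (not called) in fraction 3 and 1.16 in fraction 4, and MT-TR at 0.44 and 1.06. MT-TE (-0.62 ± 0.26) and MT-TL1 (-0.48 ± 0.14) were the 2 lower genes, and MT-TE did not pass without D146N fraction 4 replicate 2 (-0.56) or 3 (-0.46) and was at -0.94 without replicate 1, nor did it pass in DESeq2 (-0.61, adjusted p = 0.0564) or without the filter (-0.73, edgeR adjusted p = 0.0531).

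In fraction 7, 9 members were higher in D146N and 18 lower, where 63.5% of all genes were called (32.4% higher, 31.1% lower). Of the mRNAs 7 were higher and 4 lower (median 0.64), and of the tRNA genes 2 were higher and 14 lower (median -2.05). With library totals 26 members were higher and 6 lower, where 89% of all genes were called (83.6% higher, 5.41% lower). With TMM, leaving out any 1 library of fraction 7 gave 25 or 26 called members. MT-ATP8 (2.02 ± 0.47) and MT-TE (1.99 ± 0.27) rose most, and MT-TW (-7.57 ± 0.26) and MT-TL2 (-4.90 ± 0.27) fell most among those called. In fraction 8, 5 members were higher and 21 lower, where 65.1% of all genes were called (32.5% higher, 32.6% lower). With library totals 22 were higher and 6 lower, where 87% of all genes were called (80.9% higher, 6.08% lower). Replicate 3 of WT fraction 8, which stood apart from its group, was among the WT libraries here. With TMM, leaving out 1 library of fraction 8 gave 24 to 31 called members. MT-TE (1.99 ± 0.25) and MT-ND5 (1.20 ± 0.11) rose most, and MT-TW (-7.65 ± 0.26) and MT-TL2 (-4.92 ± 0.27) fell most. MT-TV is left out of these rankings because its counts in WT fractions 7 and 8 were 0 after rounding; with its change put at the limit that 3 counts over the group allow, the medians of the tRNA genes were the same.

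Groups with like levels were then compared across fraction labels, a pairing that earlier results of these data prompted. D146N fractions 7 and 8 against WT fractions 3 and 4 gave 7 higher and 9 lower genes of 36 with TMM. Of all genes 17.3% were called (6.9% higher, 10.4% lower), and the all-gene median was 0.01 with TMM and 0.16 with library totals. With TMM, leaving out any 1 library of these groups gave 13 to 15 called members. The mRNAs gave 3 higher and 2 lower (median 0.08), and with library totals 4 and 2 (22.1% of all genes called, 16.9% higher and 5.29% lower). MT-TQ (1.44 ± 0.26) and MT-TA (0.90 ± 0.27) were the largest increases, and MT-TS2 (-1.64 ± 0.18) and MT-TH (-1.62 ± 0.17) the largest decreases; MT-TA did not pass without replicate 2 of D146N fraction 7 (0.73) or of D146N fraction 8 (0.80). D146N fractions 3 and 4 against WT fractions 7 and 8 gave 15 higher and 10 lower. Of all genes 29.2% were called (17.1% higher, 12.1% lower), and the all-gene median was 0.01 with TMM and -0.09 with library totals. Here 10 of the 13 mRNAs were higher and none lower (median 0.83). With library totals 9 were higher and none lower (median 0.70), where 27% of all genes were called (12% higher, 15% lower). Among the tRNA genes 5 were higher and 10 lower. MT-TW (-6.77 ± 0.24, edgeR adjusted p = 3.57e-20), MT-TA (-3.89 ± 0.27), MT-TT (-3.49 ± 0.18) and MT-TP (-2.88 ± 0.20) were lower, and MT-TK (1.79 ± 0.16) was higher. MT-TV was also called higher, from 13 rounded counts over 6 libraries against 0. With 3 counts put in place of that 0, its log2 change was 2.52, which leaves out the sampling error of the 13 counts.

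When the 4 fractions of a rescue with the same replicate number were summed, 10 of 36 genes were higher in D146N and 12 lower. Of 20562 genes tested 27.4% were called (14.9% higher, 12.5% lower). With library totals 10 of the 36 were higher and 10 lower, where 30.8% of all genes were called (23% higher, 7.76% lower). The mRNAs gave 7 higher and 2 lower (median 0.27) and the tRNA genes 3 higher and 10 lower (median -0.30). MT-TQ (0.91 ± 0.21) and MT-TE (0.75 ± 0.10) were the largest increases, and MT-TW (-4.87 ± 0.14) and MT-TT (-2.02 ± 0.12) the largest decreases. In these sums each fraction weighs by its depth.

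Nuclear genes that make and handle mitochondrial RNA had mixed directions with TMM and 1 direction in each rescue with library totals. Of 48 such genes 14 were higher and 24 lower in WT fractions 7 and 8 against 3 and 4 with TMM (median -0.33), where 34.6% of all genes were higher and 39.3% lower. In D146N 17 were higher and 12 lower (median 0.11), where 29.9% of all genes were higher and 30.3% lower. With library totals none was higher and 47 lower in WT (83.6% of all genes lower), and 48 were higher in D146N (88.9% of all genes higher). SSBP1, which binds single-stranded mitochondrial DNA, was at 2.58 ± 0.13 (SE) in WT and -1.84 ± 0.13 in D146N. MTPAP, the mitochondrial poly(A) polymerase, was at 1.20 ± 0.08 and -1.26 ± 0.08, FASTKD1 at 1.51 ± 0.09 and -1.07 ± 0.10, and MTERF4, needed for assembly of the mitochondrial ribosome, at 1.42 ± 0.08 and -0.86 ± 0.09. TOP1MT, the mitochondrial topoisomerase, named after its values were seen, had the opposite signs, at -2.18 ± 0.14 and 1.67 ± 0.14. With library totals SSBP1 was at -0.11 (not called) and 1.08, MTPAP at -1.47 and 1.67, FASTKD1 at -1.17 and 1.86 and MTERF4 at -1.25 and 2.06, each with the opposite sign, and TOP1MT at -4.83 and 4.58. Of 75 nuclear-encoded subunits of the respiratory chain and ATP synthase, 63 were higher and 8 lower in WT (median 2.69) and 9 higher and 62 lower in D146N (median -1.80) with TMM, beside the TMM shares of all genes just given. With library totals 28 were higher and 32 lower in WT (median -0.01), where 7.66% of all genes were higher and 83.6% lower. In D146N 67 were higher and 4 lower on that scale (median 1.13), where 88.9% of all genes were higher and 4.08% lower.

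Nuclear copies of mitochondrial genes could share reads with the members. The 404 rows of such copies together held 1.17 to 1.67% as many counts as the 13 mRNAs. MTND2P28 held 18.6 to 66.9% as many counts as MT-ND2, MTATP6P1 held 2.17 to 9.01% as many as MT-ATP6, and MTCO1P12 held 0.969 to 2.25% as many as MT-CO1, so the level of MT-ND2 is the least certain of these.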

How the data were processed

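RNA was measured in 24 ribosomal RNA depleted libraries, grouped by sample title. Per gene, the authors deposited expected counts without normalization, as the values show: 73.3% of nonzero ones were whole within 0.005. Tools listed in the submitters' processing notes, with no roles, are featureCounts 1.5.1, HISAT2 2.1.0, SAMtools and Bowtie2 2.3.5, and the build is hg38; how reads that fit several genes were shared out and the strand setting are not given in the sources used here. Gene positions came from RefSeq (GRCh38.p14), which matched all 37 genes. Library totals of 21150568 to 32988927 counts set the counting precision.

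Counts were rounded and fitted in edgeR 4.0.16 (R 4.3.3): TMM, filterByExpr by group, robust quasi-likelihood, 8 group means over 24 libraries, 18907 genes, Benjamini-Hochberg adjustment, biological coefficient of variation 13.8%. Summed fractions were fitted apart (20562 genes). Class shares were compared by exact permutation. Alternatives were library totals, the 13 mRNAs as library size, DESeq2 1.42.0 and its size factors, no filter, a replicate block, leaving out each library and, for class shares, a total without the members and abundant small RNAs. The fit was tested on simulated data, and the outcome is not given here. No 2 libraries agreed within sampling noise.

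Members, gene lists and contrasts were chosen with earlier results of these data known. All members are named; single fold changes are given for mRNAs, rRNAs and the 4 tRNA genes of highest mean count in the fraction contrasts, and elsewhere for the 2 largest called changes each way; of each nuclear list up to 4 genes of smallest p are named; MT-TW, MT-TA, MT-TT and MT-TP were added after their values were seen.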

Additional observations from a re-analysis of the deposited data

Results flagged for a closer look

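The effect of fraction (7 and 8 against 3 and 4) differed between D146N and WT for 15 of the 19 genes given single fold changes, by edgeR's test of the difference itself with TMM. Of all genes tested 77.1% were called, a like share, so a called difference was not particular to these genes. The log2 difference, D146N minus WT, was negative for MT-TR (-8.06), MT-CO2 (-4.44), MT-CO3 (-4.43), MT-TS1 (-4.15), MT-ND3 (-3.75), MT-TK (-3.17), MT-ATP6 (-1.03), MT-ND2 (-0.91), MT-CO1 (-0.71) and MT-ND4 (-0.57), and of these only MT-TR kept its sign with library totals. It was positive on both scales for MT-RNR2 (4.12), MT-TL1 (1.68), MT-ND6 (1.48), MT-ND5 (1.26) and MT-CYB (1.09).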

How the results depend on the processing

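The counts of called members stayed within 1.5 times under every alternative run. Scaling changed direction most. With library totals, values of the opposite sign were, in WT, MT-CO1 -2.33, MT-CO2 -0.61, MT-CO3 -0.36, MT-ND3 -1.16, MT-RNR1 -1.93, MT-TK -2.17 and MT-TS1 -0.034; in D146N, MT-ND1 1.83, MT-ND2 1.81, MT-CO1 2.56, MT-CO2 0.51, MT-ATP8 2.55, MT-ATP6 1.78, MT-CO3 0.79, MT-ND3 0.70, MT-ND4L 1.83, MT-ND4 1.96, MT-TK 0.23 and MT-TS1 1.43; and in the difference, MT-ND1 4.95, MT-ND2 4.66, MT-CO1 4.88, MT-CO2 1.12, MT-ATP6 4.52, MT-CO3 1.14, MT-ND3 1.85, MT-ND4L 5.41, MT-ND4 5.004, MT-TK 2.40 and MT-TS1 1.46. With the 13 mRNAs as library size they were, in WT, MT-CO1 -0.41, MT-RNR1 -0.38 and MT-TK -0.34; in D146N, MT-ND1 0.057, MT-ND2 0.038, MT-CO1 0.79, MT-ATP8 0.78, MT-ATP6 0.016, MT-ND4L 0.066 and MT-ND4 0.19; and in the difference, MT-ND1 1.42, MT-ND2 1.02, MT-CO1 1.20, MT-ATP6 0.94, MT-ND4L 1.75 and MT-ND4 1.37. Leaving out 1 library, the MT-ND4L difference ran from -0.19 to 0.12 and MT-RNR1 in WT from -3.54, without WT fraction 8 replicate 3, to 0.86. Without a filter the MT-ND4L difference was 0.11. Against a total without the members and the abundant small RNAs the tRNA share ratios were -0.43 in fraction 7 and -0.60 in fraction 8. The cause was not tested.

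Replicate numbers did not pair the libraries: correlations of same-numbered deviations ran from -0.02 to 0.03. With the replicate number as a block, 31 members were called in WT and 27 in D146N, as without it, and 25 in place of 26 in fraction 8; it ended no call of a named gene. Depth limits the tRNA genes, 2 of which averaged under 10 counts, and the rRNAs of WT fraction 8 and D146N fraction 3, with 1 to 14.5 counts outside replicate 3 of the former. The 2 rRNAs together also held only 10.5 counts in D146N fraction 4 replicate 1 and 35.5 in WT fraction 7 replicate 3.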

Other observations

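Neighbouring genes that share 1 mRNA did not keep 1 ratio across groups. The ratio of MT-ATP8 to MT-ATP6 counts was 0.154 ± 0.00422 (SD, n = 3) in fraction 3 of WT, 0.0628 ± 0.0016 in its fraction 7, 0.0941 ± 0.00235 in D146N fraction 3 and 0.163 ± 0.00341 in D146N fraction 7. In WT fraction 8 it ranged from 0.059 to 0.162, the highest being replicate 3. That value was above WT fraction 3 (0.151 to 0.159) and within the range of D146N fraction 7 (0.160 to 0.167). The ratio of MT-ND4L to MT-ND4 was 0.0786 ± 0.00356 in WT fraction 3, 0.0525 ± 0.00769 in WT fraction 7, 0.0804 ± 0.00467 in D146N fraction 3 and 0.08 ± 0.00185 in D146N fraction 7. The ratio of MT-ND6 to MT-ND5, which lie on opposite strands and end beside each other, was 0.0537 ± 0.00238 in WT fraction 3, 0.0672 ± 0.00847 in WT fraction 7, 0.0385 ± 0.00388 in D146N fraction 3 and 0.0573 ± 0.00638 in D146N fraction 7.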
